A study of Bos taurus with 14 samples.

Results

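The genes described here encode the enzymes of glycolysis, the pentose phosphate pathway, and pyruvate dehydrogenase with the citrate cycle. They were picked by name from a list of 45 genes, and every probe set whose single gene symbol in the array annotation was on that list was taken. This gave 67 of the 24128 probe sets on the array, of which 3 were array control probe sets of GAPDH and were left out of the tests. The remaining 64 probe sets measured 40 of the 45 genes: 16 of 18 in glycolysis, 6 of 6 in the pentose phosphate pathway and 18 of 21 in pyruvate dehydrogenase and the citrate cycle. HK2, PDK1, IDH3B, DLST and MDH1 were matched by no probe set with a single symbol and were not analysed here. Where a gene had several probe sets, which held for 14 genes, its value is that of the probe set with the highest mean, and the others are given where they differed.

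RNA came from 14 whole Holstein conceptuses, meaning the embryo together with its extraembryonic membranes, and each was measured on 1 Affymetrix bovine array. All had been sired by a single bull in superovulated donor cows. Embryos were collected on Day 6.5, graded by morphology, and placed in recipient heifers in groups of 2 to 6 until the conceptuses were flushed on Day 15. There were 3 conceptuses from Grade 3 embryos (2 male) and 11 from Grade 1 embryos (4 male). Of the Grade 1 conceptuses, 5 were classed as long (1 male), 5 as short (2 male), and 1 male had no recorded length. Dam and recipient are not labelled per conceptus, so the p-values rest on the spread between conceptuses treated as independent.

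Glycolysis splits glucose into pyruvate in the cytosol, and lactate dehydrogenase turns pyruvate into lactate. The pentose phosphate pathway diverts glucose phosphate into NADPH, the reducing agent for lipid synthesis, and into ribose phosphate for nucleotides. Pyruvate that enters the mitochondrion is made into acetyl-CoA by pyruvate dehydrogenase and oxidised in the citrate cycle. Around this stage the trophoblast of cattle elongates from a small ovoid sac into a filament, and the whole conceptus lives on the secretions of the uterine glands before it attaches.

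Values are log2 signals after robust multi-array averaging (RMA), a method that corrects background, equalises the arrays' distributions and combines each probe set's probes into a single value. A difference of 1 on this scale is a doubling of the signal. Signals of different probe sets are not comparable with each other, because each probe set has its own efficiency. Over the 14 arrays the median signal lay between 5.62 and 5.72. The members were mostly bright: 38 of 40 averaged above that range, while ENO2 at 3.28 and PCK2 at 4.11 averaged below it. Bright markers of trophectoderm were present in every group, among them KRT18 at 14.47 in long and 14.46 in short conceptuses. KRT18 lay near the highest value of the arrays, 14.61. Other trophectoderm markers were dimmer. ELF5 at 6.64 and KRT8 at 6.16 averaged somewhat above the range of array medians, and TKDP2 at 4.74 averaged below it. All 6 erythroid markers measured were below the array median. A lower signal in a whole conceptus cannot tell fewer cells of a type from less RNA per cell.

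Most of the enzymes varied little between conceptuses. With no matching for brightness, the SD within a group had a median of 0.116 over the 40 members, against 0.141 over 9155 named genes. It was lowest for the transketolase TKT, at 0.048, and highest for the platelet-type phosphofructokinase PFKP, at 0.90. PFKP spanned 5.84 to 8.73 across the conceptuses, with the 3 lowest values in short conceptuses and the highest in a Grade 3 one.

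**Figure D1:**
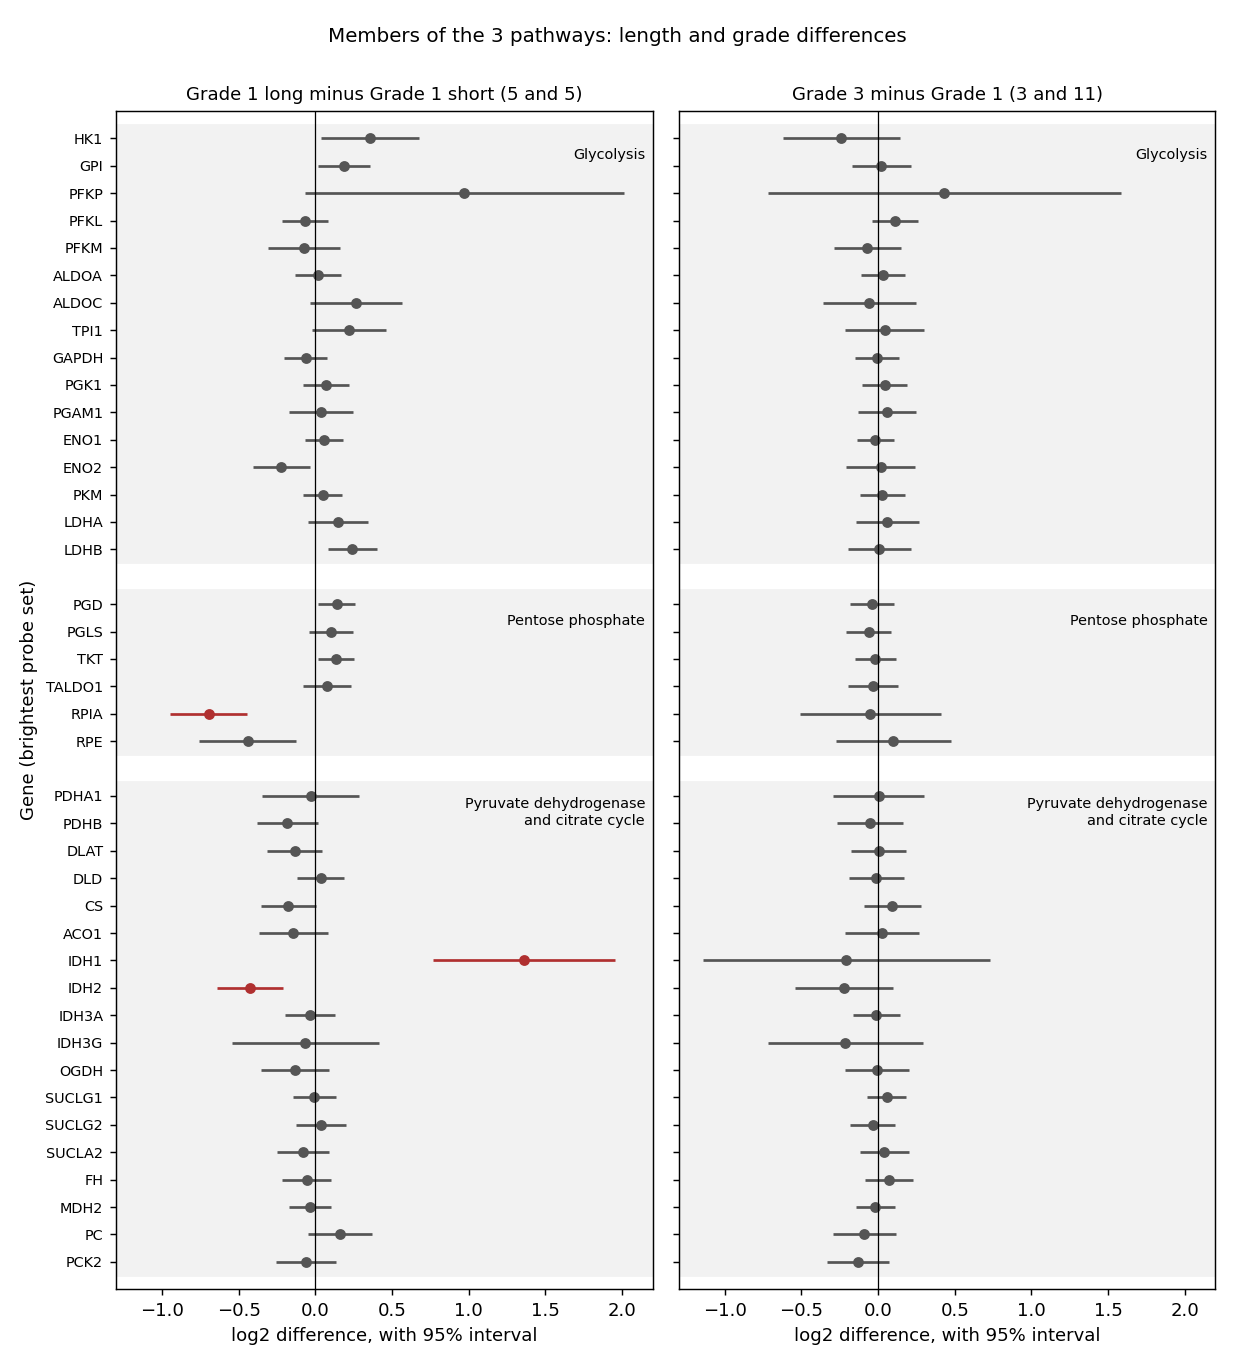
Log2 difference of each measured enzyme gene with its 95% interval, for long minus short Grade 1 conceptuses (left, 5 and 5) and for Grade 3 minus Grade 1 (right, 3 and 11). Genes are listed down the page by pathway and red marks an adjusted p under 0.05 in limma. Only IDH1, IDH2 and RPIA are red, all for length, and PFKP has the widest interval in both panels.

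Long and short conceptuses of Grade 1 were compared first, a contrast that asks how conceptuses of equal embryo grade differ with their elongation. Of the 40 enzymes, 3 changed. The cytosolic isocitrate dehydrogenase IDH1 rose by 1.36 (2.57 fold), its mitochondrial counterpart IDH2 fell by 0.43 (1.34 fold lower), and the ribose phosphate isomerase RPIA fell by 0.69 (1.62 fold lower) in long conceptuses. The test was limma with Benjamini-Hochberg adjustment over all 24016 probe sets and a threshold of 0.05. Thus 1 of 40 members rose, where 3.27% of the 9155 named genes rose, and 2 of 40 fell, where 6.24% of all genes fell, so the shares of members were close to those of the array. Long and short values did not overlap in 5 members, namely RPIA, PGD, TKT, IDH1 and IDH2, while 12.6% of all genes had no overlap. In 10 of 40 members, and in 2643 of 9155 genes, the unadjusted p was under 0.05.

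IDH1 makes alpha-ketoglutarate and NADPH from isocitrate outside the mitochondrion. Its brightest probe set read 12.58, 12.66, 11.29, 11.71 and 11.57 in the long conceptuses, against 10.79, 10.99, 10.77, 10.35 and 10.11 in the short ones. Every long conceptus was above every short one, and long replicates 1 and 2 stood about 1 unit over the other 3. Those 2 conceptuses share a title prefix and had the highest scores of all 14 on the first principal component of all probe sets, 26.7 and 31.6, and their part in the difference was not tested. The difference was 1.36 ± 0.27 (SE, adjusted p = 0.0194 in limma). The dimmest of its 3 probe sets gave 1.68 (adjusted p = 0.0208), with 9.30 to 11.07 in long and 7.82 to 9.00 in short conceptuses. The middle probe set went the other way and did not pass, at -0.14 (adjusted p = 0.303), with 9.89 to 10.08 in long and 9.97 to 10.28 in short conceptuses. The gene's probe sets therefore did not give a single answer, and what each of them detects was not tested.

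IDH2 carries out the same NADP-dependent reaction inside the mitochondrion. It read 8.52, 8.26, 8.69, 8.17 and 8.21 in long conceptuses, against 8.88, 8.81, 8.73, 8.77 and 8.80 in short ones. The groups did not overlap, but the highest long value, 8.69, lay close to the lowest short value, 8.73. The difference was -0.43 ± 0.10 (SE, adjusted p = 0.0306 in limma), from 1 probe set. Leaving out a single conceptus ended the call in 6 of 10 fits: without short replicates 2, 4 or 5 the adjusted p was 0.0513, 0.0658 and 0.0632, and without long replicates 2, 4 or 5 it was 0.0768, 0.0605 and 0.0749.

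RPIA interconverts ribose phosphate and ribulose phosphate, the step that supplies ribose for nucleotides. It read 8.96, 8.65, 9.17, 9.08 and 8.86 in long conceptuses, against 9.42, 9.45, 9.74, 9.75 and 9.85 in short ones. No long conceptus reached the lowest short one. The difference was -0.69 ± 0.11 (SE, adjusted p = 0.011 in limma), and a second, dimmer probe set of the gene fell by 0.67 (adjusted p = 0.0119).

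**Figure D2:**
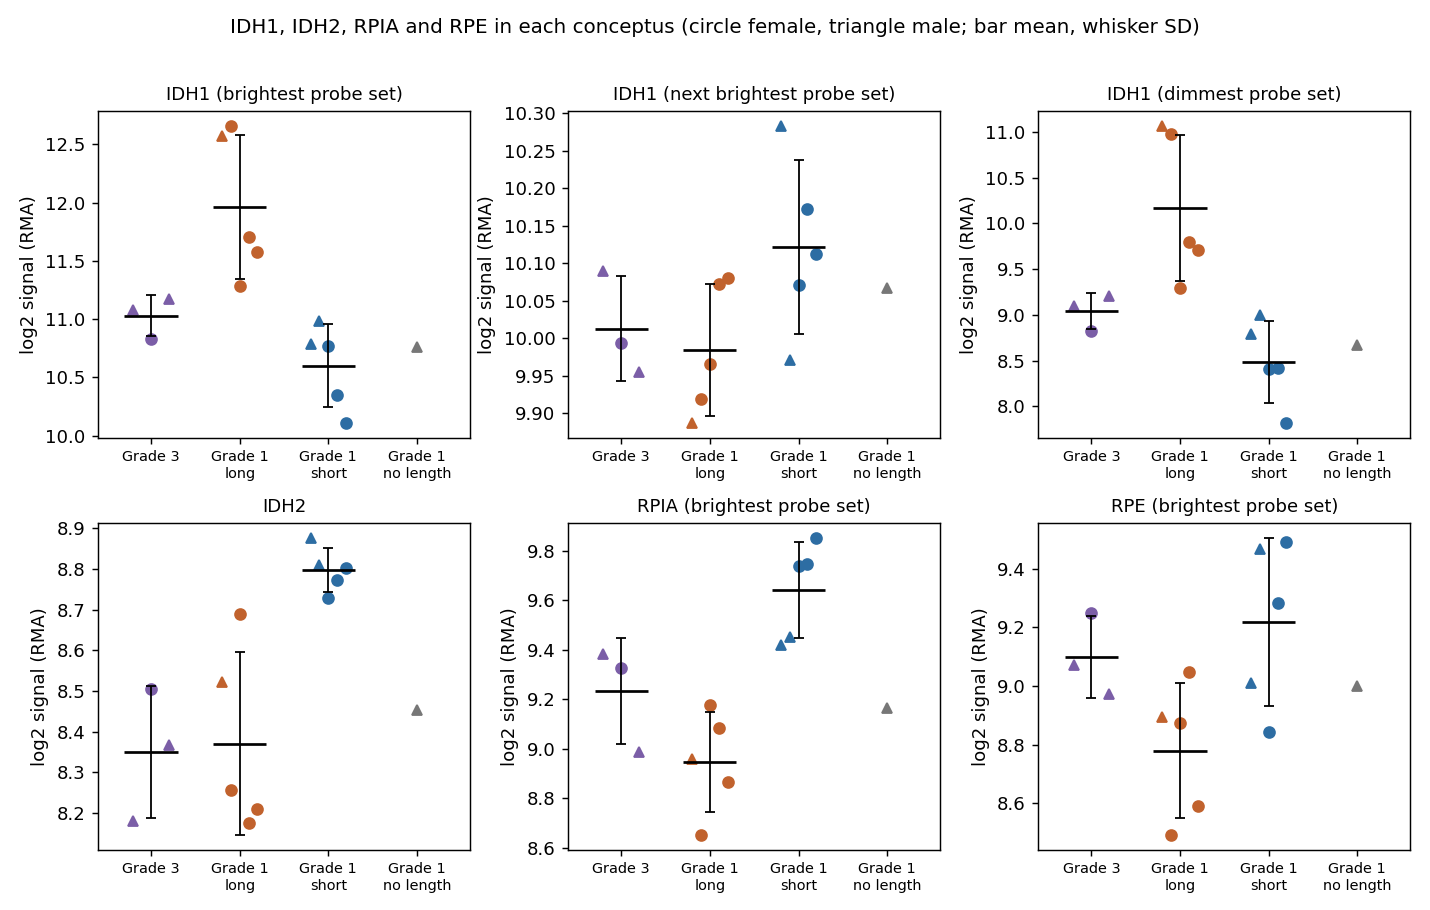
Log2 signal of the 3 probe sets of IDH1, of IDH2, and of the brightest probe sets of RPIA and RPE in each conceptus, by group (circle female, triangle male; bar mean, whisker SD; 3 Grade 3, 5 long, 5 short and 1 without a length). The long conceptuses lie above the short ones in 2 of the 3 IDH1 probe sets and below them for IDH2 and RPIA, and each panel has its own axis.

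Among the glycolytic genes none passed for length in limma, and 4 of 16 had an unadjusted p under 0.05. In long conceptuses 12 of 16 had the higher mean, where 3768 of 9155 named genes did. The median difference was 0.06, while the median over all named genes was -0.03. LDHB, the heart-type lactate dehydrogenase subunit, came closest. It read 13.11, 13.29, 13.15, 13.29 and 13.39 in long conceptuses and 13.03, 12.97, 13.14, 12.91 and 12.97 in short ones, which overlap through 1 value on each side. Its difference was 0.24 ± 0.07 (SE, adjusted p = 0.0699 in limma). HK1, the hexokinase of most tissues, read 7.50, 7.18, 6.96, 6.51 and 6.92 in long conceptuses and 6.67, 6.65, 6.75, 6.64 and 6.57 in short ones. The long values were the more scattered and 1 of them lay below all short ones, with a difference of 0.36 ± 0.15 (SE, adjusted p = 0.173). ENO2, the neuronal enolase, was among the dim members. It read 3.05, 3.11, 3.25, 3.24 and 3.19 in long conceptuses and 3.11, 3.38, 3.52, 3.46 and 3.49 in short ones, a difference of -0.22 ± 0.08 (SE, adjusted p = 0.147). Of the short conceptuses 1 lay within the long range and 4 above it. The one within it, at 3.11, was short replicate 1, for which one label says long. Without it ENO2 was at -0.29 (adjusted p = 0.0295), with it counted as long at -0.30 (0.0407), and with sex as a covariate at -0.26 (0.0389).

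The remaining glycolytic genes differed by at most 0.27 in size, apart from PFKP. Glucose phosphate isomerase GPI differed by 0.19 and triose phosphate isomerase TPI1 by 0.22. The phosphofructokinases, which catalyse the committed step, differed by 0.97 (PFKP), -0.07 (PFKL, the liver type) and -0.07 (PFKM, the muscle type). PFKP read 7.17, 7.61, 7.59, 8.22 and 8.45 in long conceptuses, against 8.30, 6.19, 5.84, 7.88 and 5.97 in short ones. Of the short conceptuses, 2 lay among the long ones and 3 far below them, so that the interval ran from -0.07 to 2.01 (adjusted p = 0.262). The aldolases differed by 0.02 (ALDOA) and 0.27 (ALDOC). In the second stage of the pathway the differences were -0.06 for the dehydrogenase GAPDH, 0.07 for the kinase PGK1, 0.03 for the mutase PGAM1, 0.06 for the enolase ENO1 and 0.05 for the pyruvate kinase PKM. LDHA, the muscle-type lactate dehydrogenase subunit, differed by 0.15, and its other probe sets by 0.20 and 0.07. The 3 array control probe sets of GAPDH, aimed at its ends and its middle, differed by -0.07, -0.03 and -0.05.

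In the pentose phosphate pathway the oxidative and the carbon-shuffling enzymes had slightly higher means in long conceptuses, and the pentose isomerase and epimerase lower ones. The oxidative enzyme PGD, phosphogluconate dehydrogenase, read 11.88, 11.86, 11.84, 11.90 and 11.90 in long conceptuses, against 11.79, 11.63, 11.72, 11.76 and 11.78 in short ones. The groups did not overlap, yet the difference of 0.14 ± 0.05 (SE) did not pass (adjusted p = 0.156 in limma). The lactonase PGLS differed by 0.10, TKT by 0.14 and the transaldolase TALDO1 by 0.08, and none passed. RPE, the epimerase that acts on the same ribulose phosphate as RPIA, read 8.89, 8.49, 8.87, 9.05 and 8.59 in long conceptuses and 9.01, 9.47, 8.84, 9.28 and 9.49 in short ones. The groups overlapped, and the difference was -0.44 ± 0.14 (SE, adjusted p = 0.0952). Its other probe sets gave -0.34, -0.16 and 0.04. The median over the 6 genes was 0.09, but over all 10 of their probe sets it was -0.056.

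Pyruvate dehydrogenase and the citrate cycle differed by little outside the isocitrate dehydrogenases. In long conceptuses 14 of 18 means were lower, where 5387 of 9155 named genes had lower means. The median was -0.06, against -0.03 over all named genes. The subunits of the pyruvate dehydrogenase complex differed by -0.03 (PDHA1), -0.18 (PDHB), -0.13 (DLAT) and 0.03 (DLD). Citrate synthase, CS, which brings acetyl-CoA into the cycle, read 12.20, 12.14, 12.50, 12.37 and 12.41 in long conceptuses, against 12.46, 12.41, 12.50, 12.49 and 12.66 in short ones. These overlapped, and the difference was -0.18 ± 0.08 (SE, adjusted p = 0.233 in limma), with -0.23 in its dimmer probe set. The cytosolic aconitase ACO1 differed by -0.14 and the NAD-dependent isocitrate dehydrogenase subunits IDH3A and IDH3G by -0.03 and -0.07. The later enzymes differed by -0.13 for OGDH, -0.01, 0.04 and -0.08 for the succinyl-CoA ligase subunits SUCLG1, SUCLG2 and SUCLA2, -0.06 for fumarase FH, and -0.04 for the malate dehydrogenase MDH2. PC, pyruvate carboxylase, which refills oxaloacetate, differed by 0.16, and PCK2, the mitochondrial carboxykinase that draws oxaloacetate off to phosphoenolpyruvate, by -0.06. None of these passed.

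The design could place most of the enzymes within narrow bounds. For 34 of 40 members, and for 7771 of 9155 genes, the whole 95% interval of the length difference lay within 1.5 fold in either direction. The exceptions were IDH1, IDH2, RPIA, RPE, HK1 and PFKP. In 6 of the 14 members with several probe sets (IDH1, PC, PDHA1, PDHB, RPE and SUCLA2) the probe sets differed in sign for length.

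The 3 calls did not hold in every setting. With the 7 prefixes of the sample titles as a fixed block, whose meaning is not stated and of which only 2 hold both lengths, IDH1 was 1.18 (adjusted p = 0.0578), IDH2 -0.24 (0.357) and RPIA -0.61 (0.0632). Without short replicates 4 and 5, which lay farthest out on the first principal component of all probe sets and were picked after seeing the data, they were 1.11 (0.133), -0.43 (0.147) and -0.59 (0.0845). Within the prefix with 2 long and 1 short conceptus the differences were 1.63 for IDH1, -0.42 for IDH2 and -0.64 for RPIA, and within the one with 1 long and 2 short they were 0.73, -0.06 and -0.57. For Grade 1 short replicate 1, one label says long and another short; counted as long, it gave IDH1 1.21 (adjusted p = 0.0781) and IDH2 -0.32 (0.193), while RPIA still passed and ENO2 passed as well. Leaving out 1 conceptus also ended the IDH1 call without short replicate 4 (adjusted p = 0.0527), and RPIA passed in all 10 such fits. Among females (4 long, 3 short) the differences were 1.40, -0.43 and -0.83, and among males (1 and 2) 1.69, -0.32 and -0.47.

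Some markers of tissue layers passed for length too, where 3.27% of all genes rose and 6.24% fell. Of 7 hypoblast markers 2 rose (APOA1 and RBP4), while the other 5 did not pass, at -0.11 for GATA4, -0.18 for GATA6, -0.11 for TTR, -0.16 for AFP and 0.04 for HNF4A, and the list's median was -0.11. Its summed signal, on a linear scale and dominated by APOA1, was 10090 to 12380 in long and 7342 to 9473 in short conceptuses. Of 10 trophectoderm markers 2 rose (TFAP2A and TKDP2). The others did not pass, with ELF5 at -0.19 and KRT8 at -0.14 and the rest higher in long, and the list's median was 0.08. The trophectoderm sums were 116200 to 119600 in long and 89100 to 114000 in short conceptuses. They were dominated by KRT18, IFNT2, TKDP1, PAG11 and PAG2, which averaged 13.81 to 14.53 and did not pass, and held little of the signal of TFAP2A and TKDP2. Of 5 endothelial markers 1 rose (PECAM1), with sums of 101.1 to 141.3 and 81.36 to 91.34, although all 5 averaged below the array median. The others did not pass, at 0.12 for CDH5, -0.19 for KDR, 0.02 for TEK and 0.09 for VWF. Of 3 epiblast markers 1 fell (DNMT3B), while POU5F1 at -0.82 and SOX2 at -0.26 did not pass. The epiblast sums, mostly POU5F1, were 193.7 to 321.9 in long and 267.9 to 511.3 in short conceptuses. Of 7 blood and immune markers 1 fell (CD8A), with sums of 200.5 to 260.0 and 257.7 to 380.6, although 5 of the 7 averaged below the array median. The others did not pass, at -0.11 for PTPRC, -0.13 for CD3E and 0.04 for CD4. CD14 was at -0.03, CD68 at -0.55 and ITGAM at -0.03. None of 5 endometrial or 6 erythroid markers passed. The part of these markers in the enzyme differences was not tested. Signal ratios between the ends of GAPDH, a measure of RNA integrity, overlapped between the groups, at -0.03 to 0.03 in long and -0.08 to 0.08 in short conceptuses. Those of the actin control overlapped too, at 1.34 to 1.84 in long and 1.29 to 1.75 in short conceptuses. Those of the elongation factor control ran from -2.11 to -1.75 in long and from -1.96 to -1.52 in short conceptuses, with 4 of 5 short conceptuses above every long one. The part of this ratio in the enzyme differences was not tested.

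Within-array differences between paired isoenzymes were compared by exact permutation over conceptuses, in 8 pairs and 16 tests across length and grade. None passed after Benjamini-Hochberg adjustment, and 2 of 16 had an unadjusted p under 0.05. The largest shift was that of IDH1 against IDH2, which was 1.79 higher in long than in short conceptuses (exact two-sided p = 0.00794, the smallest that 5 against 5 can give, adjusted p = 0.127). With 16 tests a single length pair at that smallest p cannot pass after adjustment, so its missing the threshold was set by the design. The other was ENO2 against ENO1, at -0.28 (exact p = 0.0397, adjusted p = 0.297). PFKL and PFKM each shifted against PFKP, by -1.04 and -1.05, with adjusted p = 0.339 for both. LDHB shifted against LDHA by 0.10 (adjusted p = 0.743).

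Conceptuses of Grade 3 and Grade 1 embryos were then compared, which asks whether poor morphology before transfer leaves a trace on Day 15. None of the 40 enzymes passed, and 0% of the 9155 genes did. The smallest adjusted p among the members was 0.999, and none had an unadjusted p under 0.05, against 371 of 9155 genes. The median differences were 0.03 in glycolysis, -0.04 in the pentose phosphate pathway and -0.01 in the citrate cycle, against -0.00194 over all named genes. None of the markers of tissue layers or of other cell types passed for grade either. For 36 of 40 members, and for 8297 of 9155 genes, the 95% interval lay within 1.5 fold. The exceptions among the members were HK1 (-0.62 to 0.14), PFKP (-0.72 to 1.58), IDH1 (-1.14 to 0.73) and IDH3G (-0.72 to 0.29).

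The members with the smallest p for grade were PFKL, IDH2 and PCK2. PFKL read 8.92, 9.09 and 9.04 in Grade 3, against a lowest, median and highest value of 8.80, 8.90 and 9.13 in Grade 1, and differed by 0.11 ± 0.07 (SE). IDH2 read 8.18, 8.50 and 8.37 in Grade 3, against 8.17, 8.69 and 8.88 in Grade 1, and differed by -0.22 ± 0.15 (SE). PCK2 read 3.89, 3.98 and 4.16 in Grade 3, against 3.92, 4.16 and 4.37 in Grade 1, and differed by -0.13 ± 0.10 (SE). In each of them the grades overlapped. The dimmer probe set of CS had an unadjusted p of 0.0022 in limma, with 9.11, 9.49 and 9.53 in Grade 3, but its adjusted p was 0.811 and the brighter probe set differed by 0.09.

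Set against each length group separately, no member passed in limma, nor did any of the 24016 probe sets. An unadjusted p under 0.05 was found for 2 of 40 members and 882 of 9155 genes against long, and for 2 of 40 members and 1133 of 9155 genes against short conceptuses. These comparisons share the Grade 3 arrays, so they are not independent of each other. IDH1 read 11.08, 10.83 and 11.17 in Grade 3, below all long conceptuses and above all but 1 of the short ones. It stood at -0.93 against long (adjusted p = 0.391) and 0.43 against short conceptuses (adjusted p = 0.63). IDH2 stood at -0.02 against long and -0.45 against short conceptuses (adjusted p = 0.247). RPIA read 9.38, 9.33 and 8.99 in Grade 3 and stood at 0.29 against long and -0.41 against short conceptuses (adjusted p = 0.341). In the conceptus without a recorded length IDH1 read 10.76, IDH2 8.45 and RPIA 9.16.

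Sex was a label of every conceptus and was compared with grade as a covariate, because 3 of the members lie on the X chromosome in the RefSeq gene table. Of the 40 enzymes 2 were lower in males and 0 higher, where 0.481% of all genes were lower. Both are X-linked: IDH3G, a regulatory subunit of the NAD-dependent isocitrate dehydrogenase of the citrate cycle, and PDHA1, the catalytic alpha subunit of pyruvate dehydrogenase. Male and female values did not overlap in 2 of the 40 members, IDH3G and PDHA1, and in 0.655% of all genes.

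IDH3G read from 9.06 through a median of 9.16 to 9.41 in the 6 males, against 9.83, 9.93 and 10.17 in the 8 females. The difference was -0.75 ± 0.07 (SE, adjusted p = 0.00015 in limma), or 1.68 fold lower in males. It was -0.73 within Grade 3, -0.80 within long and -0.79 within short conceptuses. PDHA1 read 11.27, 11.50 and 11.64 in males, against 11.69, 11.89 and 12.00 in females. The difference was -0.41 ± 0.06 (SE, adjusted p = 0.008), or 1.33 fold lower in males, and was -0.27, -0.56 and -0.46 within Grade 3, long and short conceptuses. The other probe sets of PDHA1 gave -0.33, -0.27 and 0.00 and did not pass.

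The third X-linked member, the glycolytic kinase PGK1, did not pass. It read 12.94, 13.11 and 13.20 in males, against 13.14, 13.20 and 13.27 in females, with overlap. Its difference of -0.11 ± 0.05 (SE, adjusted p = 0.638 in limma) had an interval of -0.22 to 0.00. Of the 297 X-linked genes on the array 34 were lower and 2 higher in males, with a median difference of -0.13. Of the 37 members outside the X chromosome none passed for sex. The X-linked relatives PFKFB1, TKTL1 and PDK3, which control or parallel these pathways, differed by 0.04, 0.02 and -0.34 and did not pass.

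**Figure D3:**
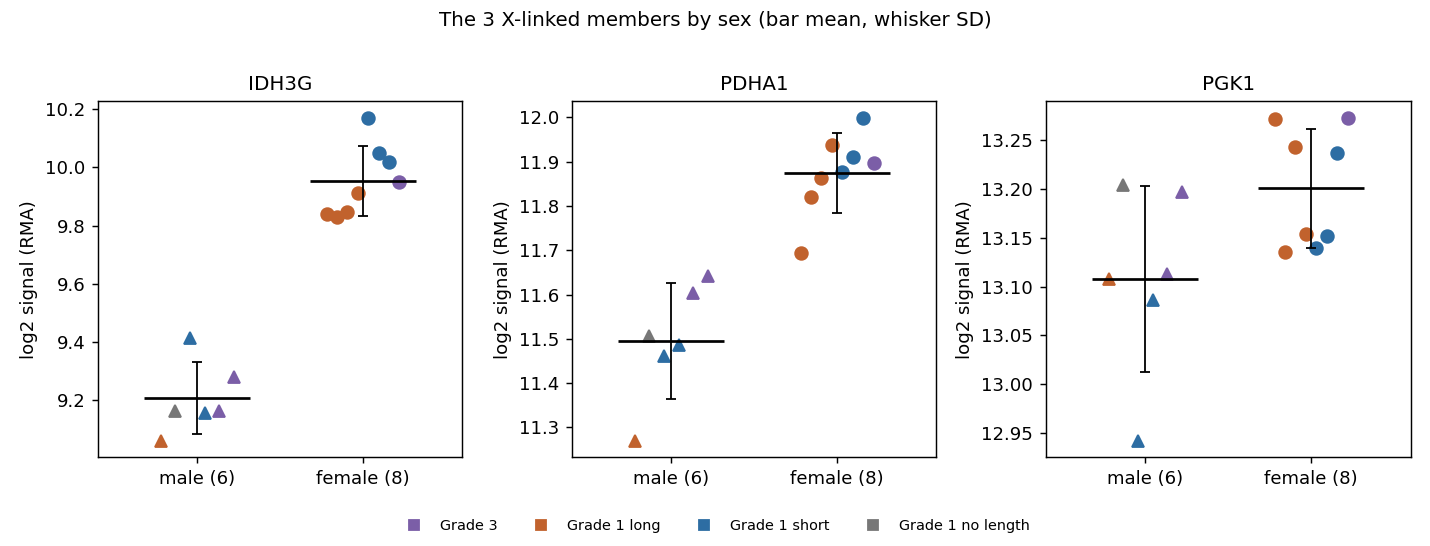
Log2 signal of the X-linked members IDH3G, PDHA1 and PGK1 in the 6 male and 8 female conceptuses, coloured by group (bar mean, whisker SD; each panel has its own axis). All males lie below all females for IDH3G and PDHA1, while the sexes overlap for PGK1.

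Averaged over its members after subtracting each gene's mean over the 14 arrays, glycolysis stood at 0.02 ± 0.09 in Grade 3 (SD, n = 3), at 0.06 ± 0.05 in the long group and at -0.08 ± 0.09 in the short group (n = 5 each). The long and short conceptuses overlapped through 1 short conceptus. PFKP, with the largest length difference of these genes at 0.97, went with that shift, as did most of the 16. The pentose phosphate pathway stood at -0.01 ± 0.10 in Grade 3, -0.05 ± 0.05 in long and 0.07 ± 0.05 in short conceptuses, where long and short did not overlap. RPIA and RPE, the members with the largest differences, went with that shift, whereas the other 4 went against it. The citrate cycle stood at -0.03 ± 0.04, 0.02 ± 0.04 and 0.02 ± 0.06 in the same groups. Its near-equal long and short means set IDH1, higher by 1.36 in long conceptuses, against 14 of 18 members with lower means there. By sex the citrate cycle stood at -0.05 ± 0.03 in males and 0.04 ± 0.04 in females. Without its X-linked members IDH3G and PDHA1 it stood at -0.01 ± 0.04 in males and 0.01 ± 0.04 in females. These means describe the lists and were not tested.

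**Figure D4:**
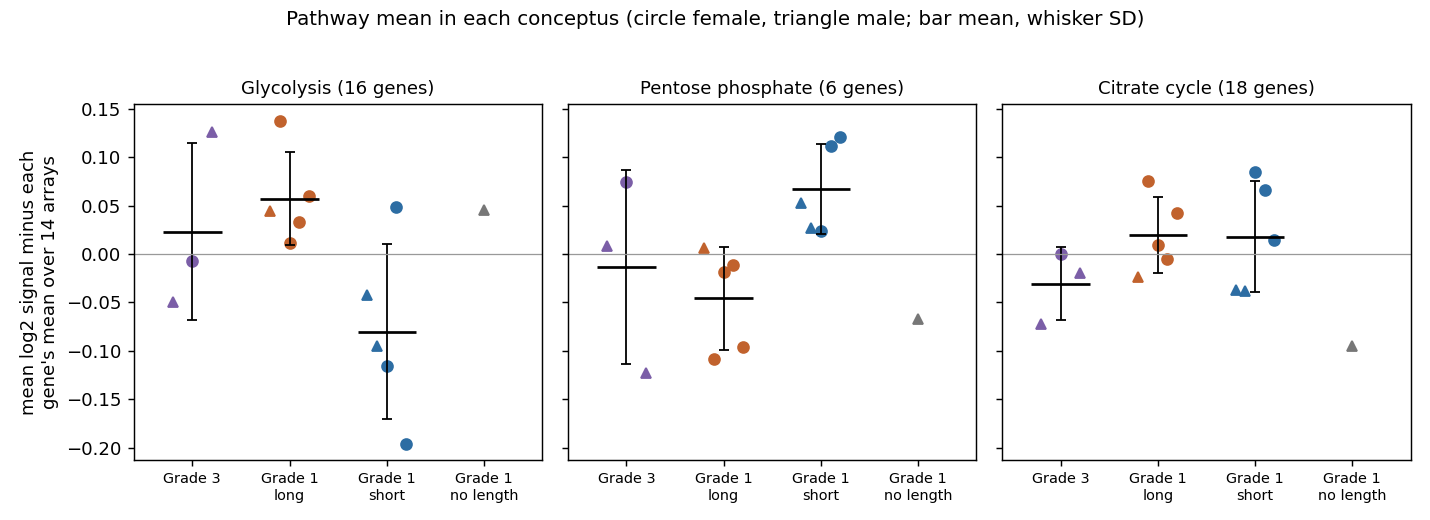
Mean log2 signal of each pathway's measured members in each conceptus, after subtracting each gene's mean over the 14 arrays (circle female, triangle male; bar mean, whisker SD). Long and short conceptuses separate for the pentose phosphate genes, with 0.01 as the highest long and 0.02 as the lowest short value, and all points lie within 0.2 of 0.

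Other genes of these pathways were counted as well, and 50 of the 66 listed were measured. For length 5 of the 50 rose and 1 fell in long conceptuses, where 3.27% of all genes rose and 6.24% fell. For grade and sex none passed in limma, with an unadjusted p under 0.05 for 2 and 4 of them. Those that rose were the hexokinase-domain protein HKDC1, by 0.63 ± 0.14 (SE, adjusted p = 0.0262 in limma), the muscle phosphoglycerate mutase PGAM2, by 0.59 ± 0.12 (0.0226), the mitochondrial aspartate aminotransferase GOT2, by 0.35 ± 0.06 (0.0145), the ribokinase RBKS, by 0.33 ± 0.09 (0.0484), and the oxygen-regulated transcription factor EPAS1, by 0.56 ± 0.12 (0.0231). ADPGK, a glucokinase that uses ADP, fell by 0.32 ± 0.08 (0.0352). HKDC1 read 11.98, 12.09, 11.75, 11.84 and 11.94 in long conceptuses, against 11.57, 11.54, 11.30, 11.28 and 10.76 in short ones. GOT2 read 11.37, 11.39, 11.24, 11.33 and 11.38 in long conceptuses, against 11.06, 11.03, 11.09, 10.90 and 10.88 in short ones. In all 6 genes the long and short conceptuses did not overlap. The 6 were picked for passing on these same values, so their separation adds no support. The 12.6% over all genes, which were not picked by passing, is not a matched share. Within the title prefix with 2 long and 1 short conceptus, and then the one with 1 long and 2 short, the differences were 0.49 and 0.46 for HKDC1, 0.80 and 0.72 for PGAM2, 0.35 and 0.25 for GOT2, 0.33 and 0.24 for RBKS, 0.41 and 0.35 for EPAS1, and -0.08 and -0.31 for ADPGK. None of the 6 passed with the prefix as a fixed block (adjusted p = 0.0578 to 0.363) or without short replicates 4 and 5 (0.0502 to 0.206). With short replicate 1 counted as long HKDC1 and PGAM2 still passed, and the other 4 did not (0.0593 to 0.151). Leaving out 1 conceptus ended the call in 0 of 10 fits for GOT2, 3 for EPAS1, 4 each for HKDC1 and PGAM2, 7 for ADPGK and 9 for RBKS. Second probe sets of GOT2 and EPAS1 also rose, by 0.37 and 0.50, while that of ADPGK stood at -0.21 (adjusted p = 0.139). EGLN1, the oxygen-sensing prolyl hydroxylase, was at 0.24 and missed the threshold (adjusted p = 0.0502), and HIF1A was at -0.02.

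**Figure D5:**
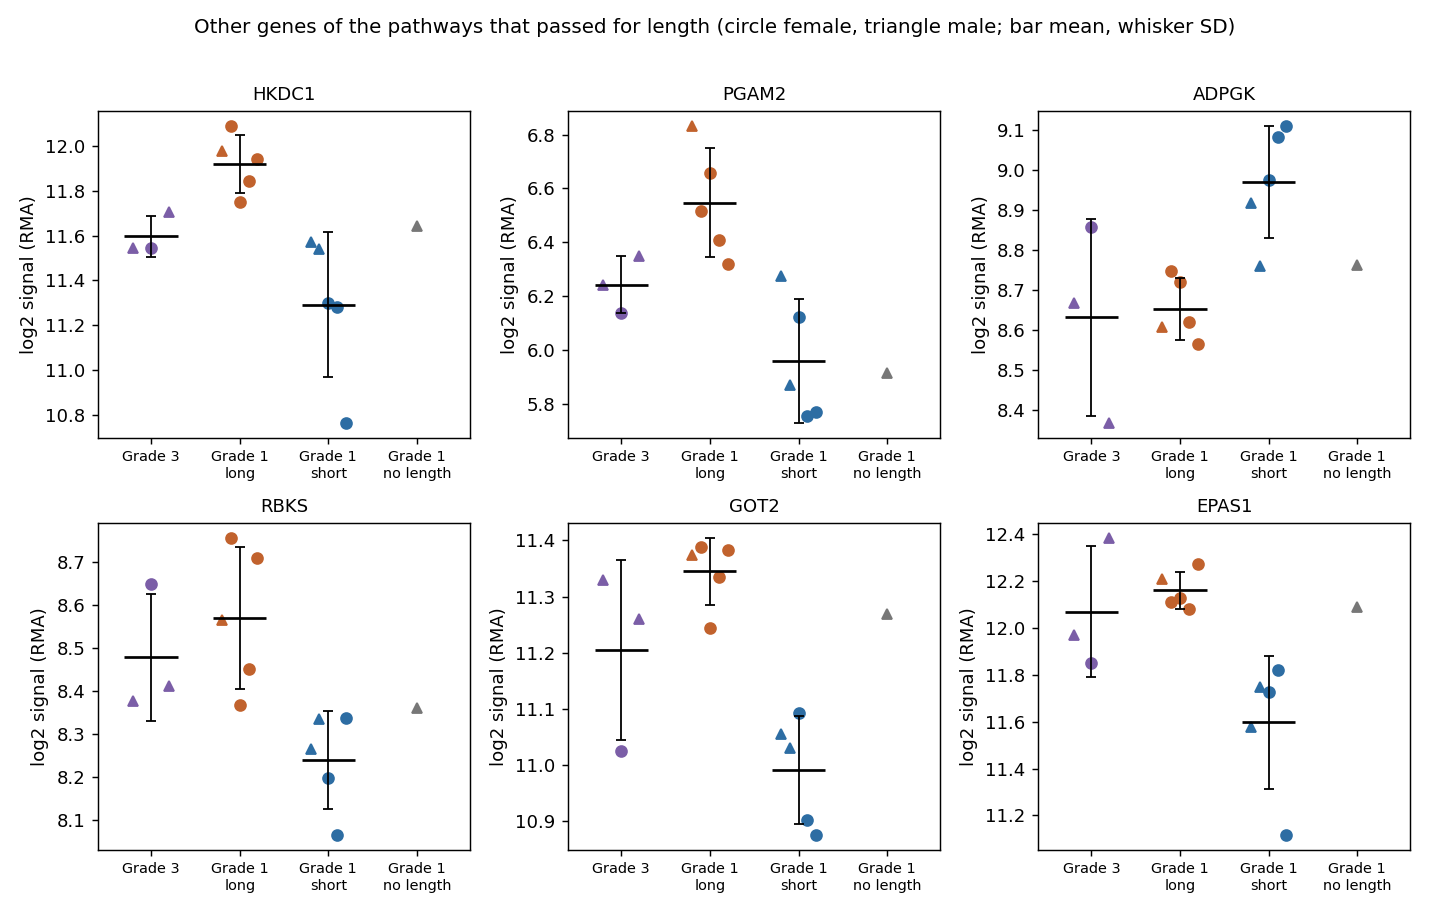
Log2 signal in each conceptus of the 6 other pathway genes that passed for length (circle female, triangle male; bar mean, whisker SD; each panel has its own axis). HKDC1, PGAM2, RBKS, GOT2 and EPAS1 are higher and ADPGK is lower in all 5 long than in all 5 short conceptuses, and Grade 3 means lie between the long and short means except for ADPGK.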

How the data were processed

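The deposited table holds log2 expression values per probe set. Per the submitters' processing notes, RMA and Affymetrix Expression Console were used by the authors; their versions, and the set of arrays that RMA was run on, were not given in the sources used here. Per the labels' protocols, biotin-labelled RNA was prepared from 250 ng of total RNA. RMA compresses differences at low signal and removes shifts common to all genes. Arrays carry no read depth, and their number limits the precision. The 112 array controls were left out. The platform annotation gave 1 gene symbol for 13292 probe sets, several for 86 and none for 10638.

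Comparisons used limma 3.58.1 (lmFit, eBayes) in R 4.3.3, two-sided, with Benjamini-Hochberg adjustment over 24016 probe sets, and the procedure was checked on simulated data. Length used 5 and 5 arrays, grade 3 and 11, sex 6 and 8 with grade as a covariate. Grade 3 was set against each length group in 1 fit. The design text gives 4 Grade 1 conceptuses for grade without naming them, so all 11 were used. For the conceptus whose labels disagree, the length characteristic was used.

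The members and lists were chosen with earlier results of these data known. Values in every sample (for groups of over 5, the lowest, median and highest) are given for members that passed, for the 3 of each pathway with the smallest p for length and the 3 with the smallest p for grade; PFKP, PGK1, HKDC1 and GOT2 were added after their values were seen.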

Additional observations from a re-analysis of the deposited data

Results flagged for a closer look

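In 6 of 80 sets of 5 values (40 members in the long and in the short conceptuses), 1 conceptus lay far from the other 4 by Dixon's criterion, which chance alone meets in about 5% of sets. ALDOA read 12.58 in Grade 1 long replicate 2, against 12.32 to 12.39 in the other long conceptuses. SUCLG1 read 10.89 in long replicate 4, against 10.98 to 11.01, and MDH2 13.25 in long replicate 5, against 13.14 to 13.17. ALDOC read 7.41 in Grade 1 short replicate 2, against 7.17 to 7.20 in the other short conceptuses, and PGAM1 read 11.68 in short replicate 5, against 12.02 to 12.15. IDH3G read 9.06 in long replicate 1, the only male among the long conceptuses, against 9.83 to 9.91 in the 4 females.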

How the results depend on the processing

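For length, 1 enzyme was higher and 2 were lower. With a trended, robust prior 2 were higher (LDHB added, adjusted p = 0.0269 in limma), and with sex as a covariate 4 were lower (ENO2 and PDHB added). When a fixed block for title prefix was added, 0 were higher and 0 lower; when the conceptus with conflicting labels was taken as long, 0 were higher; without the 2 short conceptuses farthest out, chosen after seeing the data, 0 were higher and 0 lower. With every member probe set the pentose phosphate median was -0.056, against 0.09 with 1 per gene. Leaving out 1 conceptus gave 0 to 2 higher and 1 to 3 lower for length. RPIA passed in all 10 such fits (-0.75 to -0.62), IDH1 missed without short replicate 4 (adjusted p = 0.0527), and IDH2 missed in 6 (highest adjusted p = 0.0768, without long replicate 2). For grade and the Grade 3 contrasts 0 enzymes passed in every alternative run, and for sex 0 were higher and 2 lower; IDH3G and PDHA1 passed in all 14 leave-out fits (highest adjusted p = 0.00165 and 0.0275). With sex as a covariate 49 of all probe sets, none of them an enzyme, passed for Grade 3 against long conceptuses, where 0 had passed. RBKS missed with centred arrays (adjusted p = 0.0611) and ADPGK with all 14 arrays in 1 fit (0.0551). No called difference changed sign. Alternatives also covered renormalised or centred arrays, a dim filter, averaged probe sets and the prefix as a random block. No paired analysis was possible because replicate numbers are only accession-order names, so the title prefix served as the block. Background correction and scan dates cannot be varied from RMA values, and RMA compression limits dim genes such as ENO2 and PCK2.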
